A study of Mus musculus with 42 samples.

Results

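The effect of TCPOBOP on the liver of mice fed cholesterol was measured in 11 of the 42 samples of the study, 6 mice given TCPOBOP and 5 given the vehicle, chosen by the treatment and diet in their labels. All were female C57BL/6 mice fed a diet with 1% cholesterol for 1 week. The TCPOBOP mice, aged 18 weeks, received a single intraperitoneal injection of 3 mg/kg TCPOBOP in corn oil, and the vehicle mice, aged 19 weeks, received corn oil alone. The left lateral lobe of the liver was taken 24 hours later. Age thus differed with treatment by 1 week, and the effects of both cannot be told apart. For vehicle replicate 2 only processed values were at hand, so the vehicle group holds replicates 1, 3, 4, 5 and 6. Vehicle and TCPOBOP mice on standard diet, at the same dose and with 6 mice of 19 weeks in each group, and 6 mice of 16 weeks given 40 mg/kg PCN on the cholesterol diet served for comparison. The labels number the mice within a group but say nothing of litters, so p-values measure the spread between these arrays.

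TCPOBOP is a synthetic ligand that activates the constitutive androstane receptor (CAR) of the mouse, a nuclear receptor of hepatocytes that switches on genes for the oxidation, conjugation and export of drugs, bilirubin and bile acids. Cholesterol synthesis in the liver is governed mainly by SREBP2, a membrane-bound transcription factor. SCAP carries it to the Golgi, where proteases release it, while cholesterol and oxysterols, acting through SCAP and the INSIG proteins, hold it in the endoplasmic reticulum. A cholesterol diet therefore lowers the genes of the synthesis pathway, and oxysterols formed from cholesterol activate LXR, which raises the transporters that send sterols into bile.

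Each array carried RNA of a liver lobe in the Cy3 channel and a pool of all samples in the Cy5 channel, and every level below is a log2 ratio of liver to this pool. A level of 0 equals the pool, and levels of different genes cannot be compared. Of 277 mouse genes on this dedicated array, 104 passed an adjusted p of 0.05 in limma, or 37.5%. Of these, 64 were higher after TCPOBOP (23.1%) and 40 lower (14.4%). The levels of the 2 groups did not overlap for 40 genes (14.4%), and 39 of these were called. The median log2 fold change of all genes was -0.02, and 52 genes were below background throughout both groups. Probe intensities passed background for 63.4% to 77.5% of probes on these arrays. Probes at the upper limit of the scanner numbered 1 to 3 on each TCPOBOP array and 0 or 1 on each vehicle array. The level of such a probe, and a rise drawn from it, can be understated. In bulk tissue, fewer cells of a type and less RNA per cell cannot be told apart. All 9 hepatocyte markers on the array were above background. Of these, Cyp3a11 rose, albumin (Alb) fell and 7 did not pass the test, while the 1 macrophage marker lay below background and 0 of 5 adipocyte markers were called.

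Vehicle replicate 1 stood apart in the cholesterol synthesis genes, where the median level of the 18 genes was -0.24 against -1.29 to -0.96 in the other 4 vehicle mice. TCPOBOP replicate 3 stood apart in the serum amyloids and a few other genes. The scanner files give spot positions in micrometres for vehicle replicate 1 and TCPOBOP replicates 1 and 2. For the other 8 arrays they are in millimetres, so vehicle replicate 1 is also the only vehicle array of its kind on cholesterol diet. Over the vehicle and TCPOBOP arrays of both diets, 0 genes differed between these kinds at an adjusted p of 0.05 in limma. At an unadjusted p of 0.05, 16 did. Without vehicle replicate 1 and TCPOBOP replicate 3 together, 103 genes were called, 62 higher and 41 lower, of which 93 were also called on all arrays.

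Most genes of xenobiotic metabolism rose. Of 18 phase I enzymes on the array 11 were higher and 1 lower, with a median log2 fold change of 0.99. Over all genes 23.1% were higher and 14.4% lower. The levels of TCPOBOP and vehicle mice did not overlap for any of the 11, beside 14.4% without overlap over all genes. The same 11 and 1 were counted without vehicle replicate 1 and without TCPOBOP replicate 3, and the median was 1.18 within the arrays in micrometres (9 higher) and 0.88 within the arrays in millimetres (11 higher, 1 lower).

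Cyp2b10, the classical CAR target, stood at -1.42, -1.90, -2.01, -1.84 and -2.88 in the 5 vehicle mice and at 0.99 to 1.30 (median 1.15) after TCPOBOP. The groups were far apart, and the 6 treated mice lay within a narrow band. Cyp2b10 rose by 3.15 on the log2 scale (standard error 0.16, adjusted p = 9.25e-13), or 8.91-fold, the largest rise on the array. Cyp2b13 and Cyp2b9, close relatives of Cyp2b10, rose by 2.98 (standard error 0.19) and 2.37 (standard error 0.16). Transcripts of these close relatives may hybridize to any of the 3 probes, so the values are not separate evidence.

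Of the Cyp3a enzymes, which oxidize steroids, bile acids and many drugs, Cyp3a13 rose by 1.80 (standard error 0.14), Cyp3a25 by 1.77 (standard error 0.11), Cyp3a41a by 1.48 (standard error 0.25) and Cyp3a11 by 1.39 (standard error 0.21). Cyp3a11 varied widely in vehicle mice, at -1.62, -0.45, -0.95, -0.62 and -2.15, while the TCPOBOP mice lay at 0.02 to 0.54 (median 0.15). Vehicle replicates 1 and 6 were the lowest, and the highest vehicle mouse was still below every treated mouse. The sequences of these paralogs are also much alike. Cyp1a2, which oxidizes caffeine and aromatic amines, rose by 1.77 (standard error 0.18, adjusted p = 7.71e-08). Cyp2a4, a steroid hydroxylase, rose by 1.55 (standard error 0.12), and its relative Cyp2a12 by 0.60 (standard error 0.10). Cyp2c40, a hydroxylase of arachidonic acid, was the 1 phase I gene that fell, by 0.72 (standard error 0.18, adjusted p = 0.00309), and vehicle replicate 1, at 0.09, lay well below the other vehicle mice.

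Alas1, the rate-limiting enzyme of the heme that cytochromes P450 need, stood at -0.54, -1.21, -1.58, -1.23 and -1.79 in vehicle mice and at 0.16 to 1.38 (median 0.77) after TCPOBOP. No mouse of one group reached the other, and the rise was 2.08 (standard error 0.24, adjusted p = 3.42e-07). Cyp26a1, which clears retinoic acid, rose by 1.85 (standard error 0.22), and Rarb, a receptor of retinoic acid, by 0.96 (standard error 0.09). Rarb was not well above background in vehicle mice, and the brighter group was at least 1.36-fold higher. Nr1i2, the gene of the pregnane X receptor that shares many targets with CAR, rose by 0.33 (standard error 0.07, adjusted p = 0.000774), whereas the gene of CAR itself, Nr1i3, stood at a difference of -0.26 (standard error 0.15, adjusted p = 0.185). Cyp17a1 and Cyp21a1, enzymes of steroid hormone synthesis, rose by 0.97 (standard error 0.21) and 0.47 (standard error 0.10).

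Of 13 transporters of bile acids, organic anions and drugs, 5 were higher and 1 lower (median 0.16), beside 23.1% higher and 14.4% lower over all genes. Abcc3, which exports glucuronides and bile acids from hepatocytes into blood, stood at -0.86, -0.96, -0.90, -1.47 and -1.71 in vehicle mice and at 0.58 to 1.10 (median 0.87) after TCPOBOP. The gap between the groups was wider than the range of either, and the rise was 2.02 (standard error 0.14, adjusted p = 9.73e-11), or 4.07-fold. Slco1a4, an uptake carrier of organic anions, rose by 1.54 (standard error 0.15). Abcc2, the canalicular export pump of conjugates, rose by 0.92 (standard error 0.13) and Slc10a2, a bile acid carrier of ileum and bile ducts, by 0.68 (standard error 0.10). Slco1a1, another carrier of organic anions, was the 1 that fell, at a log2 change of -0.57 (standard error 0.17, adjusted p = 0.0113). Vehicle replicate 6 had the highest Slco1a1 level, 1.51, and without that array the change was -0.32 (adjusted p = 0.0102). The canalicular bile salt pump Abcb11 (0.16, standard error 0.09) and the bile acid uptake carrier Slc10a1 (-0.01, standard error 0.10) did not pass the test.

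**Figure D1:**
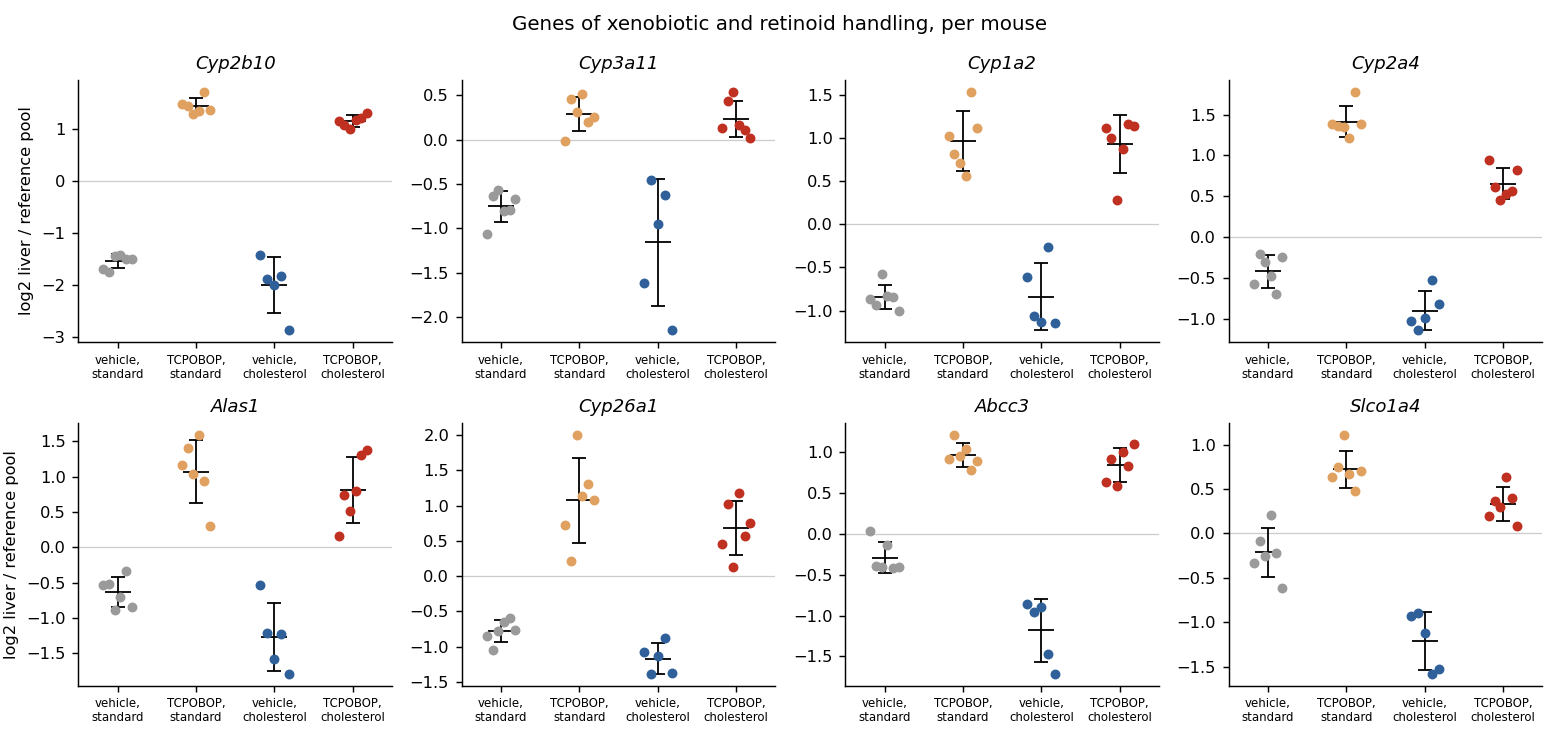
Levels of 8 genes of xenobiotic and retinoid handling per mouse, as log2 of liver over the pool on the vertical axis, in vehicle and TCPOBOP mice on standard and cholesterol diet; points are mice, and black bars are the mean and SD. On cholesterol diet every TCPOBOP mouse lay above every vehicle mouse for each of the 8 genes.

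Most genes of cholesterol synthesis rose. Of 18 on the array, 12 were higher after TCPOBOP, 2 were lower and 4 did not pass the test, with a median of 0.86. Over all genes 23.1% were higher and 14.4% lower. On standard diet, where the vehicle mice had not been fed cholesterol, 1 was higher and 1 lower, with a median of 0.25. The groups on cholesterol diet overlapped for all 18 genes, beside 14.4% without overlap over all genes.

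Msmo1, a sterol demethylase of the later pathway, stood at -0.96, -2.71, -2.25, -2.62 and -2.97 in vehicle mice and at -1.67 to 0.66 (median -0.26) after TCPOBOP. Vehicle replicate 1 was the highest of its group and lay above the lowest TCPOBOP mouse, while the other 4 vehicle mice lay below all treated mice. The rise was 1.97 (standard error 0.37, adjusted p = 0.000228), or 3.92-fold. Cyp51, the lanosterol demethylase, stood at -0.43, -1.90, -1.42, -2.05 and -2.59 in vehicle mice and at -1.49 to 0.35 (median -0.07) after TCPOBOP, a rise of 1.34 (standard error 0.36, adjusted p = 0.00597). Again vehicle replicate 1 was high, and TCPOBOP replicate 2 was the lowest treated mouse. Hmgcs1, which makes the HMG-CoA at the head of the pathway, stood at -0.44, -2.12, -1.29, -1.20 and -1.93 and after TCPOBOP at -1.21 to 0.82 (median -0.07), a rise of 1.29 (standard error 0.35, adjusted p = 0.00577).

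Of the early, mevalonate steps, mevalonate kinase Mvk rose by 0.87 (standard error 0.24) and the decarboxylase Mvd by 0.88 (standard error 0.23). The farnesyl diphosphate synthase Fdps rose by 1.07 (standard error 0.37) and squalene synthase Fdft1 by 1.10 (standard error 0.30). Of the steps from squalene on, Sqle, the squalene epoxidase, was not well above background in vehicle mice and was at least 1.44-fold higher after TCPOBOP (adjusted p = 0.0015). The lanosterol synthase Lss rose by 0.82 (standard error 0.31) and Nsdhl by 0.98 (standard error 0.37). Sc5d (0.28, standard error 0.16), Dhcr7 (0.17, standard error 0.15) and Ebp (0.08, standard error 0.06), which act on the ring late in the pathway, did not pass the test, and Pmvk lay below background. Idi1, the isopentenyl diphosphate isomerase, and Acat2, by its symbol a thiolase, were the 2 that fell, by 0.36 (standard error 0.11) and 0.33 (standard error 0.12). Idi1 and Acat2 lost their calls when arrays were centred on their medians and when loess was drawn through the spikes. The enzyme Soat2, which esterifies cholesterol and has also been called Acat2, has its own probe on the array.

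Vehicle replicate 1 stood above the other vehicle mice, while the TCPOBOP mice also spread widely. Over the 12 genes called higher, the median level was -0.40 in this mouse against -1.71 to -1.19 in the other 4 vehicle mice, and -1.14 to 0.47 in the TCPOBOP mice, of which replicate 2 was the lowest. Without vehicle replicate 1 the median over the 18 genes was 1.02 with 12 higher, and the groups no longer overlapped for Msmo1, Fdft1, Mvd, Mvk, Sqle and Lss, among others. Within the arrays in millimetres (4 mice a group) the median was 1.10 with 12 higher, and within the arrays in micrometres (vehicle replicate 1 against TCPOBOP replicates 1 and 2) it was -0.04 with 0 higher or lower. There Msmo1 had a log2 fold change of -0.07 against 2.66 within the arrays in millimetres, and Cyp51 -0.14 against 1.77. With the kind of array as a block, 10 of the 18 remained higher, and Lss (0.81) and Nsdhl (0.98) missed the threshold at nearly the same fold changes (adjusted p = 0.0513 for each). Leaving out a single array at a time left 9 to 12 higher. Fdps lost its call without vehicle replicate 3 or 6 or TCPOBOP replicate 1, 4 or 5 (0.84 to 1.01), Lss without any array of the 2 groups other than vehicle replicate 1 and TCPOBOP replicates 2 and 6 (0.69 to 0.81), Nsdhl without vehicle replicate 3, 5 or 6 or TCPOBOP replicate 1, 4 or 5 (0.77 to 1.04), and Acat2 without vehicle replicate 1 or 6 or TCPOBOP replicate 2, 4 or 6 (-0.32 to -0.28).

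**Figure D2:**
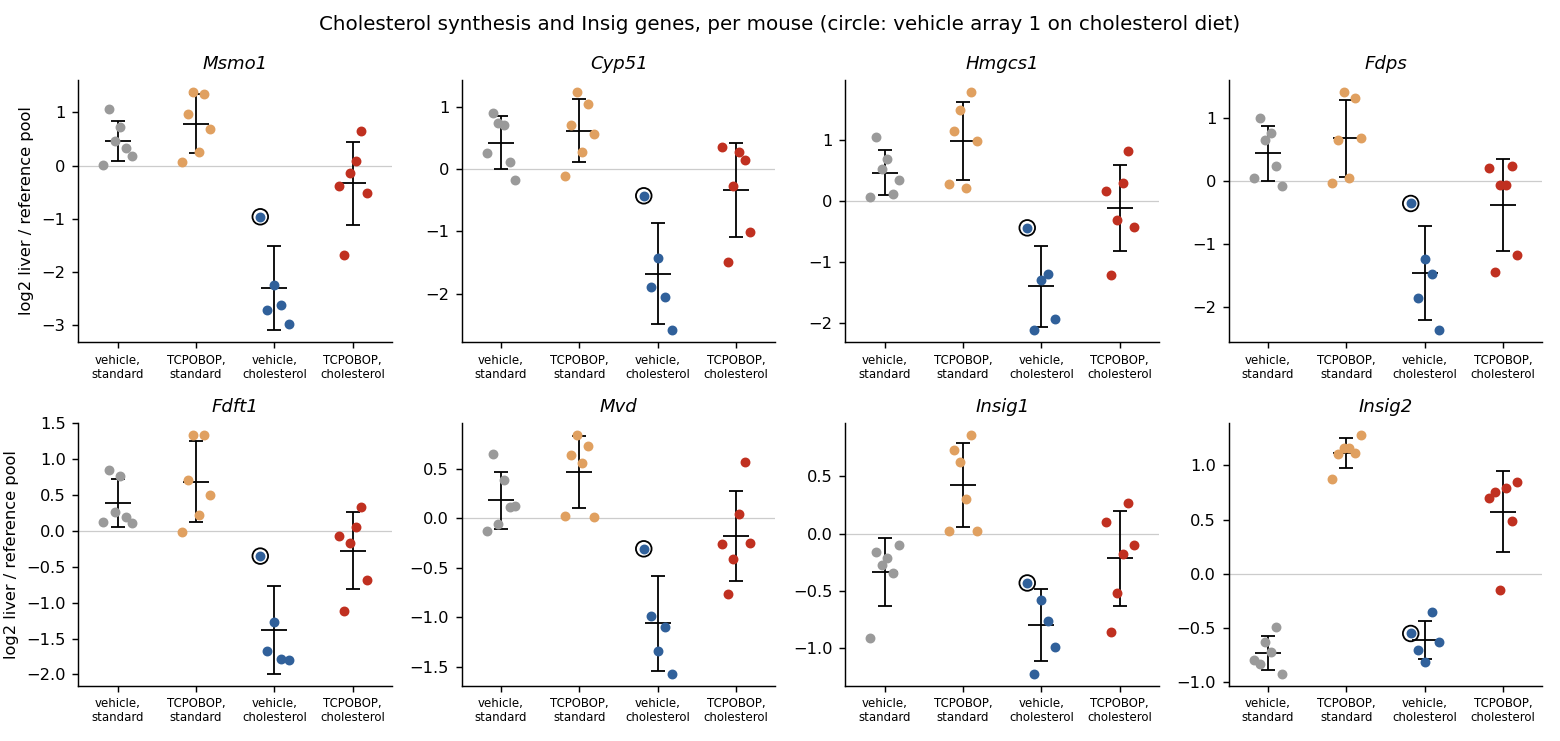
Levels of 6 cholesterol synthesis genes and of Insig1 and Insig2 per mouse, as log2 of liver over the pool, in 4 groups; points are mice, black bars the mean and SD, and the open circle marks vehicle replicate 1 on cholesterol diet. For the 6 synthesis genes the mean of vehicle mice on cholesterol diet was the lowest and the circled mouse the highest of its group, and for Insig2 both TCPOBOP groups lay above both vehicle groups.

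The level after TCPOBOP was compared with that of vehicle mice on standard diet, which had neither the agent nor the cholesterol. Msmo1 had a mean of 0.46 (SD 0.38, n = 6) in these mice, -2.30 (SD 0.79, n = 5) in vehicle mice on cholesterol diet and -0.33 (SD 0.78, n = 6) after TCPOBOP on that diet. For all 12 genes called higher the mean of the TCPOBOP mice lay between the 2 vehicle means. The choice of these genes fixes that it lay above the vehicle mean on cholesterol diet. It does not fix that it lay below the vehicle mean on standard diet. Against vehicle mice on standard diet, 86 of the 277 genes were called (31.0%), and of the 18 cholesterol synthesis genes 0 were higher and 2, Dhcr7 and Acat2, were lower, with a median of -0.34. Msmo1 differed by -0.79 (adjusted p = 0.0925) and Cyp51 by -0.76 (adjusted p = 0.105). This comparison shares the TCPOBOP arrays with the one above. In vehicle mice alone, the diet lowered 13 of the 18 genes (median -1.20), a comparison that shares the vehicle arrays on cholesterol diet.

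The promoters of genes that rose together are shown for Msmo1, Hmgcs1 and Cyp51, the 3 named synthesis genes with the largest rises, as 250 bases before and 50 after the RefSeq start in GRCm38.p6. Capitals mark CCAAT, the binding motif of NF-Y, a partner of SREBP, and TCACNCCAC, the sterol regulatory element bound by SREBP, on either strand (ATTGG is CCAAT on the reverse strand). The windows are chr8:64733529-64733828 on the minus strand, chr13:119690101-119690400 on the plus strand and chr5:4104648-4104947 on the minus strand.
Msmo1: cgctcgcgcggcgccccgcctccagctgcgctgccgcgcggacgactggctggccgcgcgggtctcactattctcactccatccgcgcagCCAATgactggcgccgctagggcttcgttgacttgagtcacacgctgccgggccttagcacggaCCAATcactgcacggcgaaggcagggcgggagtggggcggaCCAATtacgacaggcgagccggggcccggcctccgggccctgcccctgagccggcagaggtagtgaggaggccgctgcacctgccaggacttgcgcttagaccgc
Hmgcs1: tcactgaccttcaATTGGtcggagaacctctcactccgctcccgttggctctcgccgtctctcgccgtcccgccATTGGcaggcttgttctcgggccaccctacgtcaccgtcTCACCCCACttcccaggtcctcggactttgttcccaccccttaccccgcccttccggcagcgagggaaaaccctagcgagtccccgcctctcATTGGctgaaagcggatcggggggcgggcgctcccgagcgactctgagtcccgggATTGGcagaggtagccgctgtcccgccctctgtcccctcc
Cyp51: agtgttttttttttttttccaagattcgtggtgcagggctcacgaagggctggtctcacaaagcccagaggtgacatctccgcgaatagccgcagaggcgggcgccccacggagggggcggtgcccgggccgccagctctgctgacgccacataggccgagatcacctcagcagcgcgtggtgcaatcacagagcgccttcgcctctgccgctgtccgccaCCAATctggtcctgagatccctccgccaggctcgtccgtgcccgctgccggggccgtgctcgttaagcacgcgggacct
Of the 12 synthesis genes called higher, 7 had a promoter in the RefSeq table used here. CCAAT stood in 7 of these 7 windows and in 37.9% of all 27025 promoters of the same length. It also stood in 3 of 4 windows of synthesis genes that were not called and in 1 of 2 of those called lower, so it did not set apart the genes that rose. TCACNCCAC stood in 1 of 7, that of Hmgcs1, and in 1.22% of all promoters. Among all array genes with a window, CCAAT stood in 28 of 46 called higher, 16 of 30 called lower and 49 of 130 not called. A match of letters is a description of the sequence and not of binding.

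Among the genes of the SREBP pathway and of sterol sensing, 4 of 8 were higher and 1 was lower (median 0.16). Over all genes 23.1% were higher and 14.4% lower. Mbtps1, which encodes the site-1 protease that makes the first cut in SREBP, stood at -0.76, -1.12, -1.03, -1.04 and -0.85 in vehicle mice and at -0.04 to 1.07 (median 0.53) after TCPOBOP. The groups did not overlap, and the rise was 1.53 (standard error 0.15, adjusted p = 2.72e-08). Insig2, which retains SREBP in the endoplasmic reticulum, stood at -0.55, -0.70, -0.81, -0.35 and -0.63 in vehicle mice and at -0.15 to 0.85 (median 0.72) after TCPOBOP. TCPOBOP replicate 3 was the low mouse at -0.15 and still lay above all vehicle mice, and the rise was 1.18 (standard error 0.14, adjusted p = 3.9e-07). Its log2 fold change was 1.27 within the arrays in micrometres and 1.12 within the arrays in millimetres. Insig1, itself a SREBP target, rose by 0.58 (standard error 0.20, adjusted p = 0.0291), with 0.05 within the arrays in micrometres and 0.75 within the arrays in millimetres. It lost its call without vehicle replicate 3 or 6 or TCPOBOP replicate 1, 4 or 5 (0.47 to 0.57). Mbtps2, the site-2 protease, rose by 0.25 (standard error 0.08), a call lost without vehicle replicate 1 (0.20, adjusted p = 0.0587). The call was also lost without background correction, with median centring, with loess on the spikes and with the compared groups fitted alone. Scap (0.06, standard error 0.12) did not pass the test. Srebf1 fell by 0.12 (standard error 0.04, adjusted p = 0.0428) but, like Srebf2, lay below background in both groups, and it lost its call without vehicle replicate 1, 4, 5 or 6 or TCPOBOP replicate 1, 4 or 5 (-0.12 to -0.09).

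Of 8 genes of bile acid and oxysterol synthesis 3 were higher and 0 lower (median 0.08), so that the share called was the 37.5% found over all genes. Cyp39a1, an oxysterol 7-alpha-hydroxylase, stood at -0.36, -0.16, -0.18, -0.30 and -0.24 in vehicle mice and at 0.39 to 0.61 (median 0.53) after TCPOBOP. The groups were clearly apart, and the rise was 0.76 (standard error 0.10, adjusted p = 1.52e-06). Cyp27a1, the sterol 27-hydroxylase of the alternative pathway, rose by 0.49 (standard error 0.11, adjusted p = 0.00129) with overlap between the groups. Cyp46a1, the cholesterol 24-hydroxylase, was at least 1.08-fold higher (adjusted p = 0.0183), since it was not well above background in vehicle mice, and lost its call without vehicle replicate 3 or 5 (0.22 and 0.21). Cyp7a1, which opens the classical pathway and limits its rate, differed by -0.05 on the log2 scale (standard error 0.17, adjusted p = 0.893). Cyp8b1, which makes cholic acid, stood at 0.24, 0.51, -1.19, 0.00 and 0.25 in vehicle mice and at -0.88 to 0.05 (median -0.62) after TCPOBOP. The low vehicle mouse, replicate 4, lay below all treated mice, and the difference of -0.52 (standard error 0.33, adjusted p = 0.217) did not pass the test. Without this mouse it was -0.81 and passed (adjusted p = 0.0463).

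Of the 7 sterol transporters and the HDL receptor, 0 were higher and 3 lower (median -0.35), beside 23.1% higher and 14.4% lower over all genes. Scarb1, the HDL receptor, stood at 0.44, 0.33, 0.39, 0.15 and 0.55 in vehicle mice and at -0.59 to -0.23 (median -0.39) after TCPOBOP. The groups did not overlap, and Scarb1 fell by 0.77 on the log2 scale (standard error 0.09, adjusted p = 4.32e-07), at -0.75 within the arrays in micrometres and -0.80 within those in millimetres. Abcg5 and Abcg8 form the canalicular transporter that secretes sterols into bile. Abcg8 stood at -0.14, -0.30, 0.43, 0.93 and 1.48 in vehicle mice and at -1.15 to 0.07 (median -0.49) after TCPOBOP. Vehicle replicates 5 and 6 were high, and replicates 1 and 3 lay within the range of the treated mice. Abcg8 fell by 0.99 (standard error 0.26, adjusted p = 0.00553) and Abcg5 by 0.85 (standard error 0.24, adjusted p = 0.00784). Within the arrays in micrometres these values were -0.08 and 0.01, and within the arrays in millimetres -1.29 and -1.09. Abca1, which loads cholesterol onto HDL, had -0.35 (standard error 0.17, adjusted p = 0.124), and it passed without TCPOBOP replicate 3 (-0.45, adjusted p = 0.0368), with median centring (-0.37, adjusted p = 0.0430) and with loess on the spikes (-0.40, adjusted p = 0.0446).

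**Figure D3:**
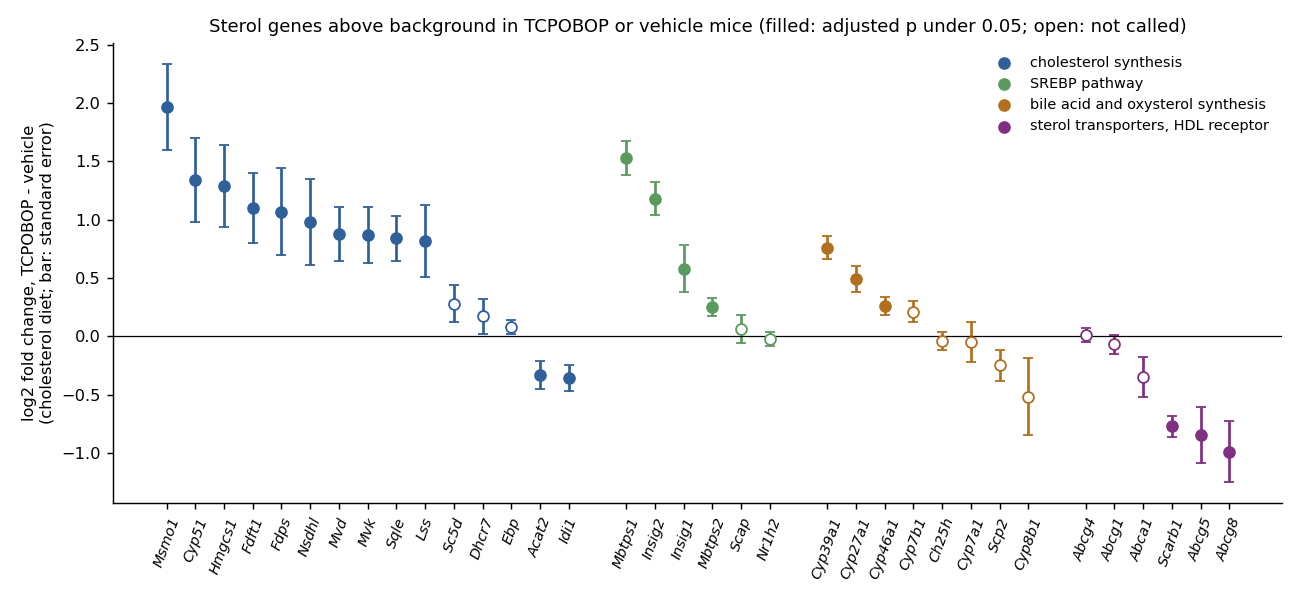
Log2 fold change of TCPOBOP over vehicle on cholesterol diet, with its standard error, for the named sterol genes above background in at least 1 of the 2 groups, by gene list; filled points passed an adjusted p of 0.05. The synthesis genes reached from -0.36 to 1.97, Mbtps1 and Insig2 stood at 1.53 and 1.18, and the 3 called sterol transporters and HDL receptor lay between -0.99 and -0.77.

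Of 13 apolipoproteins, lipases and lipoprotein receptors, 3 were higher and 2 lower, a share called near the 37.5% over all genes. Apoa4, an apolipoprotein of chylomicrons and HDL, stood at 0.21, -0.30, -0.49, 0.06 and 0.09 in vehicle mice and at 0.36 to 1.32 (median 0.93) after TCPOBOP. Every treated mouse was above every vehicle mouse, and the rise was 0.98 (standard error 0.21, adjusted p = 0.000888). Lip1, as the array names a lipase, rose by 0.29 (standard error 0.08, adjusted p = 0.00624). Apoa5, which promotes the lipolysis of triglycerides, fell by 0.49 (standard error 0.13, adjusted p = 0.00553), and Apoe, a ligand of lipoprotein receptors, by 0.42 (standard error 0.11, adjusted p = 0.00617). Apoa1, the main protein of HDL, had 0.03 (standard error 0.16) and Apob, that of LDL, -0.17 (standard error 0.10), neither past the test.

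Saa1, Saa2 and Saa3, 3 of the 4 serum amyloids on the array, had its largest falls. Of 10 acute phase genes, 6 were lower and 1 higher (median -0.42), and of 8 genes of complement and coagulation 4 were lower and 0 higher (median -0.36). Over all genes 14.4% were lower and 23.1% higher. Saa1, a secreted acute phase protein of the liver, stood at 0.64, -0.53, 0.28, -0.25 and -0.78 in vehicle mice and at -4.33 to 0.34 (median -4.23) after TCPOBOP. TCPOBOP replicate 3, at 0.34, lay within the vehicle range, and the other 5 treated mice were at -4.33 to -2.79, far below it. Saa1 fell by 3.13 on the log2 scale (standard error 0.76, adjusted p = 0.00261), and it fell by 3.85 (adjusted p = 2.49e-05) without TCPOBOP replicate 3. Saa2 fell by 3.19 (standard error 0.78) and Saa3 by 2.73 (standard error 0.73), and their probes can bind the same transcripts. Saa4, which is made constitutively, fell by 0.38 (standard error 0.09, adjusted p = 0.00242). Within the arrays in millimetres, which hold TCPOBOP replicate 3, Saa3 missed the threshold. Cyp2b10 was 0.99 in TCPOBOP replicate 3, the lowest of its group but far above every vehicle mouse. Orm1, another acute phase protein, fell by 0.57 (standard error 0.19, adjusted p = 0.0212), a call lost without vehicle replicate 1 (-0.51, adjusted p = 0.0529). The call of Orm1 was also lost with median centring (-0.34), with loess on the spikes (-0.50), with the deposited log2 ratios and within the arrays in millimetres (-0.46). C-reactive protein (Crp) was the 1 that rose, by 0.31 (standard error 0.11, adjusted p = 0.0323), a call lost without vehicle replicate 1 or 5 or TCPOBOP replicate 2, 4 or 6 (0.25 to 0.31). C9, which builds the membrane attack complex, fell by 1.16 (standard error 0.25, adjusted p = 0.000886), C4bp by 0.63 (standard error 0.15) and C4b by 0.48 (standard error 0.14).

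Of 14 genes of glucose and glycogen metabolism 3 were higher and 4 lower (median -0.19), beside 23.1% higher and 14.4% lower over all genes. Only 2 were lower without vehicle replicate 4 or TCPOBOP replicate 4, where Crem and Pklr lost their calls. Ppp1r3c, which targets a phosphatase to glycogen and favours its synthesis, stood at -0.11, 0.40, 0.28, 0.41 and 0.53 in vehicle mice and at -2.69 to -1.52 (median -2.42) after TCPOBOP. The whole treated group lay below the lowest vehicle mouse, and Ppp1r3c fell by 2.51 on the log2 scale (standard error 0.19, adjusted p = 4.46e-10), to 17.5% of the vehicle level. G6pc, which releases glucose in the last step of gluconeogenesis, fell by 1.24 (standard error 0.31, adjusted p = 0.00309), from 0.12, 0.47, 0.81, 1.21 and 0.85 to -1.31 to 0.12 (median -0.47). Here the groups met at 0.12, the level of vehicle replicate 1 and of the highest treated mouse. Pck1, the other key enzyme of gluconeogenesis, had -0.37 (standard error 0.17, adjusted p = 0.0951). Pdhb, a subunit of pyruvate dehydrogenase, rose by 0.40 (standard error 0.07).

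Scd1, which desaturates fatty acids, stood at 0.29, -0.86, 0.66, 1.81 and 1.16 in vehicle mice and at -2.34 to 0.70 (median -0.77) after TCPOBOP. Both groups spread widely and overlapped. Scd1 fell by 1.39 (standard error 0.46, adjusted p = 0.0235), with -0.14 within the arrays in micrometres and -1.93 within the arrays in millimetres, and lost its call without vehicle replicate 5 or 6 or TCPOBOP replicate 4 or 5 (-1.25 to -1.08). Fasn, the fatty acid synthase, had 0.00 (standard error 0.24). Ppara, the receptor that drives fatty acid oxidation, fell by 0.75 (standard error 0.13, adjusted p = 0.000126) without overlap of the groups, and Cpt1a, its target in mitochondrial import, had -0.37 (standard error 0.15, adjusted p = 0.0631). Cyp4f14, a hydroxylase of leukotrienes and fatty acids, fell by 0.63 (standard error 0.10, adjusted p = 3.76e-05).

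Igf1, the growth factor that the liver secretes under growth hormone, stood at 0.55, 0.41, 0.51, 0.69 and 0.59 in vehicle mice and at -1.31 to -0.12 (median -0.89) after TCPOBOP. The vehicle mice were much alike and lay above all treated mice, and Igf1 fell by 1.35 on the log2 scale (standard error 0.15, adjusted p = 2.75e-07). Adipor2, an adiponectin receptor, fell by 0.77 (standard error 0.13) and Adipor1 rose by 0.19 (standard error 0.06). Cebpa, a transcription factor of differentiated hepatocytes, fell by 0.97 (standard error 0.13, adjusted p = 2.96e-06) without overlap of the groups. Foxa2, another of these factors, rose by 0.34 (standard error 0.10, adjusted p = 0.0118), a call lost with median centring at nearly the same fold change (0.35, adjusted p = 0.0798). Among the 31 nuclear receptors and co-regulators 4 were higher and 4 lower, with 2 higher without vehicle replicate 5 or 6. The share called was below the 37.5% over all genes. Of the 10 clock genes 1 was higher and 3 were lower, near the share called over all genes. Without vehicle replicate 3 or 6 or TCPOBOP replicate 4, 5 or 6 only Cry1 remained lower, since Arntl (-0.26 on all arrays) and Per2 (-0.18) lost their calls, and 2 were higher without vehicle replicate 3 or TCPOBOP replicate 5 or 6. Nr1d2, a repressor of the clock, rose by 1.11 (standard error 0.22, adjusted p = 0.000467), and Cry1, another repressor, fell by 0.62 (standard error 0.13, adjusted p = 0.000982). Albumin fell by 0.40 (standard error 0.13, adjusted p = 0.0232), a call lost without vehicle replicate 3 or 5 (-0.29 and -0.34). The call was also lost with median centring (-0.15), with loess on the spikes (-0.13) and with the compared groups fitted alone.

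**Figure D4:**
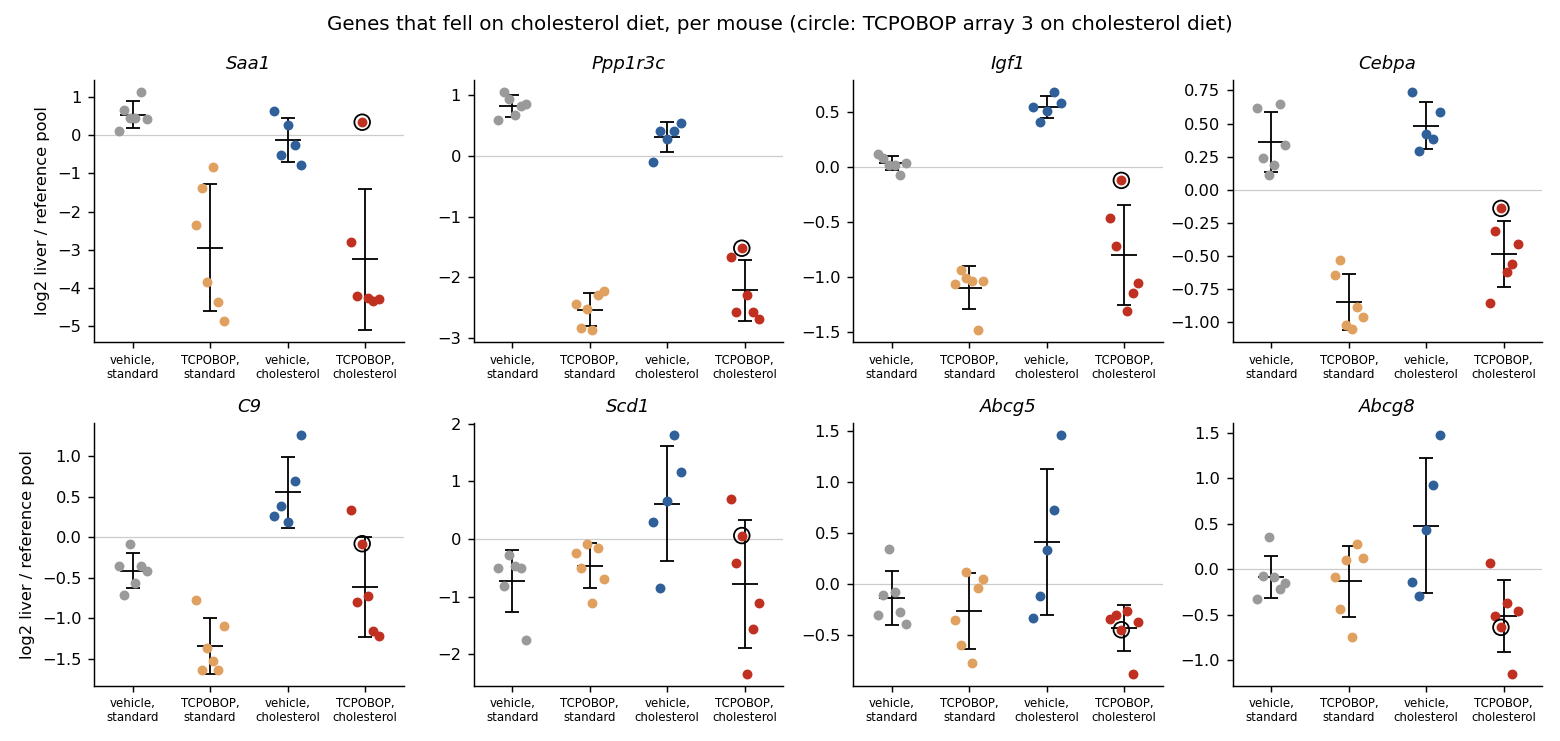
Levels of 8 genes that fell per mouse, as log2 of liver over the pool, in 4 groups; points are mice, black bars the mean and SD, and the open circle marks TCPOBOP replicate 3 on cholesterol diet. Saa1 was at 0.34 in the circled mouse and at most -2.79 in the other TCPOBOP mice, whereas Ppp1r3c, Igf1 and Cebpa were below all vehicle mice in every TCPOBOP mouse.

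The response on cholesterol diet was set against that on standard diet, measured in other mice. On standard diet 120 genes were called, 61 higher and 59 lower. Of all calls, 74 were shared in direction, which is 71.2% of those on cholesterol diet and 61.7% of those on standard diet, 30 were called on cholesterol diet alone and 0 in opposite directions. A call on one diet alone does not show that the responses differ. The difference of the responses itself passed the threshold for 0 genes (0%) in limma, with 35 at an unadjusted p under 0.05 and a smallest adjusted p of 0.0528. For Cyp2b10 the rise was 3.15 on cholesterol diet and 2.98 on standard diet, a difference of 0.17 (95% interval -0.28 to 0.63).

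Among the 6 genes at this smallest p, the rise of Abcc3 was larger on cholesterol diet by 0.77 (95% interval 0.37 to 1.17), at 2.02 against 1.26. The rise of Apoa4 was smaller by 1.13 (95% interval -1.73 to -0.53), at 0.98 against 2.11. Cyp4f14 fell by 0.63 on cholesterol diet and had -0.04 on standard diet, a difference of -0.59 (95% interval -0.88 to -0.30). Cyp2e1, an ethanol-oxidizing P450, had -0.11 against -0.69, Pparg 0.19 against -0.31, and Foxa2 0.34 against -0.19. With probes below background left out of the test, these 6 passed (adjusted p = 0.0433 for each). Of the sterol genes, Msmo1 had the largest difference, 1.65 (95% interval 0.59 to 2.71, adjusted p = 0.0895), followed by Cyp8b1 at 1.52 (95% interval 0.58 to 2.46, adjusted p = 0.0832), which had fallen by 2.04 on standard diet. Without vehicle replicate 1 on cholesterol diet the difference for Msmo1 was 1.98 (adjusted p = 0.0277). Insig2 rose less on cholesterol diet, by 1.18 against 1.84 (difference -0.66, adjusted p = 0.0771), and passed without TCPOBOP replicate 3 (-0.52, adjusted p = 0.0305). For Abcg8 (-0.94, 95% interval -1.70 to -0.18, adjusted p = 0.215), Abcg5 (-0.72, adjusted p = 0.343) and Scd1 (-1.65, adjusted p = 0.215), which had not been called on standard diet, the difference did not pass the test.

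**Figure D5:**
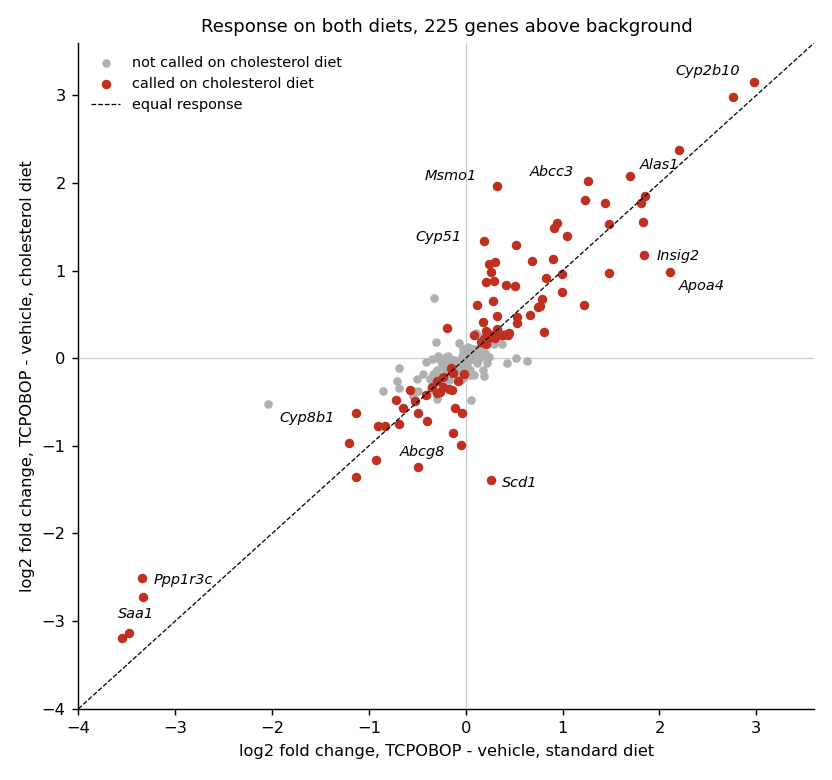
Log2 fold change of TCPOBOP over vehicle on standard diet (horizontal) and on cholesterol diet (vertical) for the 225 genes above background in at least 1 group on cholesterol diet; each point is a gene, red points were called on cholesterol diet, and the dashed line marks equal responses. Most strong responses lay near the line, Msmo1 (1.97 against 0.32) and Cyp51 (1.34 against 0.19) above it, and Scd1 (-1.39 against 0.26) and Insig2 (1.18 against 1.84) below it.

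The TCPOBOP mice were also set against mice given PCN, an agonist of the pregnane X receptor, on the same diet. Dose and age differed between these groups, so the values are those of the groups and not of matched doses, and the TCPOBOP arrays are those used above. Of 277 genes 76 differed (27.4%), 43 higher and 33 lower after TCPOBOP. Cyp2b10 was higher by 2.89, Abcc3 by 1.60 and Alas1 by 1.90, and Mbtps1 and Insig2 were higher by 1.04 and 1.22 (adjusted p of 0.00011 for both). Saa1 was lower by 3.79, Ppp1r3c by 2.24 and Scarb1 by 0.72. For Cyp3a11 the difference was 0.47 (adjusted p = 0.140), and of the 18 cholesterol synthesis genes 2 were higher and 1 lower than after PCN, Msmo1 at 0.59 (adjusted p = 0.303) not among them.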

How the data were processed

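Liver RNA was measured on 2-colour cDNA arrays. Per the labels, Cy3 held the sample and Cy5 the reference pool, and spike-in mixes of known ratio were added to both; the ratios of 8 spikes correlated at 0.993 or more between arrays. The authors deposited scanner files with the mean intensity and the local background of each spot, without normalization, and a value table of log2 ratios that they had normalized and averaged per probe. The intensities gave all values here and the deposited log2 ratios an alternative; 12 columns of the table belong to samples outside the comparisons and were not used. Background was corrected with normexp (offset 50), arrays were normalized by loess, and the 3 to 6 spots of a probe were averaged. The 284 mouse probes stand for 277 genes, named by symbol (220), synonym (51) or the name in the file (13), and the brightest probe stood for a gene with several.

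A probe counted as above background where its mean intensity passed the background median by 2 SDs on most spots. A gene not above background on any array of 1 group has a lower bound of its fold, from that group's floor, and no fold where both lie below. The number of arrays limits the precision.

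Vehicle and TCPOBOP on both diets were fitted together with limma 3.58.1 in R 4.3.3, and the groups on cholesterol diet for the comparison with PCN, with p-values adjusted by Benjamini and Hochberg over 277 genes and a threshold of 0.05. The fit was tested on simulated data. Python 3.11.15 and matplotlib 3.10.9 matched names and drew the plots. Of 55 pairs among the 11 arrays, 11 had a correlation under -0.3 (lowest -0.486), all between TCPOBOP and vehicle. The direction is that of the dyes in the labels.

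Named genes are the 12 largest rises and falls, the sterol lists, and the 4 largest changes of each other list; others are named where a list had few calls or as examples that were chosen after their values were seen. Comparison, lists and genes were chosen with earlier results of these data known. A few genes stay in the counts but are not named here. Of phase II enzymes and of marker lists for blood and for endothelial, stellate and bile duct cells, 0 genes were on the array, and 0 of 4 reference genes were called. Alternatives covered background correction, normalization, summaries, dim probes, the deposited values, the groups fitted, array weights, the methods' t-test and threshold, the kind of array, replicate numbers as a block, and each array left out. Leaving out vehicle replicate 1 and TCPOBOP replicate 3 together was added after seeing the data.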

Additional observations from a re-analysis of the deposited data

Results flagged for a closer look

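In 17 of 166 groups of 5 or 6 mice, 1 mouse lay far from the rest by Dixon's test. Chance would give about 8.3 if the tests were independent. They share the same arrays, and some probes can bind the same transcripts, so no excess over chance can be read from the count. Of the 17, 6 belong to TCPOBOP replicate 3, in which Saa1 was 0.34 (others -4.33 to -2.79), Saa2 0.34 (others -4.47 to -2.81), Saa3 0.72 (others -3.66 to -2.36), Insig2 -0.15 (others 0.49 to 0.85), Cyp1a2 0.28 (others 0.87 to 1.17) and Cry1 0.29 (others -0.49 to -0.30). In TCPOBOP replicate 1, Abcc2 was high at 0.94, and Cyp7b1 (0.07) and Foxa2 (-0.19) were low. In TCPOBOP replicate 5, Abcg5 (-0.88) and Idi1 (-0.52) were low, and in TCPOBOP replicate 6, Cyp2b9 (1.33), Cyp8b1 (0.05) and Mbtps2 (0.34) were high.

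Among vehicle mice, Slc10a2 was low in replicate 3 at -0.83 (others -0.46 to -0.38), and C4bp (-0.21) and Per2 (0.11) were low in replicate 5.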

How the results depend on the processing

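Of the 73 named genes called in TCPOBOP against vehicle, 21 kept their call in every alternative and with each array left out, 17 lost it without at least 1 array and 52 in at least 1 other alternative, most often within the arrays with positions in micrometres, where 1 vehicle and 2 TCPOBOP mice remain. There 25 genes were called instead of 104, and the sign turned for Msmo1 (-0.07), Cyp51 (-0.14), Hmgcs1 (-0.08), Fdft1 (-0.25), Fdps (-0.26), Mvd (-0.20), Mvk (-0.02), Nsdhl (-0.21), Cyp46a1 (0), Abcg5 (0.01) and Alb (0.17). With the deposited log2 ratios of the same arrays 180 genes could be tested and 64 were called in TCPOBOP against vehicle, 57 against vehicle on standard diet and 48 against PCN, and Pklr turned to 0.11 (0.06 with vehicle replicate 2 included, where 73 of 189 were called); fewer genes were tested, and no other cause was tested. Leaving out each array in turn gave 85 to 113 calls in TCPOBOP against vehicle, 79 to 89 against vehicle on standard diet and 0 to 6 in the difference of responses, which had 6 with dim probes left out and 8 without vehicle replicate 1 and TCPOBOP replicate 3 together. Calls of the difference appeared without vehicle replicate 1, 3 or 4 or TCPOBOP replicate 3 on cholesterol diet, and without vehicle replicate 3 or TCPOBOP replicate 2, 4 or 6 on standard diet; those of Cyp4f14 appeared most often (9 alternatives).

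Arrays of the same number did not deviate together (correlations of 0.15, -0.08, 0.01, 0 and 0.19 over the 5 pairs), and no pairing was used. The labels do not say whether the numbers pair the mice, and so few correlations cannot exclude it. With the number as a replicate block 112 genes were called. Median centring and loess on the spike-in spots moved the median of all genes by -0.04 and 0.05 and left 82 and 84 calls, and with the latter 72.6% of calls against vehicle on standard diet were higher instead of 55.8%, and 70.7% against PCN instead of 56.6%. The methods' t-test called 116 genes at an unadjusted p of 0.05, 80 at an adjusted p of 0.05 and 130 at the methods' own adjusted threshold of 0.16.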
